A study of Bos taurus and Bos frontalis with 6 samples.

Results

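The 3 fatty acid uptake genes LPL, CD36 and FABP3 were followed in the longissimus dorsi, a long back muscle sold as loin, of 2 kinds of cattle. They were taken by their Ensembl cattle identifiers, ENSBTAG00000012855 for LPL, ENSBTAG00000017866 for CD36 and ENSBTAG00000016819 for FABP3, and are 3 of the 27270 identifiers in the deposited table. All 3 had counts in every library and passed the filter on low counts, as did 14112 identifiers in all. The 6 libraries came from 3 Gayal (Bos frontalis) and 3 Banna cattle (Bos taurus), all given the age of 3.5 ± 0.5 years, with no treatment named. The submitters describe the 2 kinds as differing in beef quality. A deposited sample sheet named 2 batches without saying what the letters stand for. Batch A held Gayal replicate 1 with Banna replicates 1 and 2, and batch B held Banna replicate 3 with the other 2 Gayal libraries. It also called the fibre of every Banna library coarse and that of every Gayal library fine, so fibre class and species cannot be told apart. The labels do not say whether the libraries came from separate animals, so p-values measure the spread between these libraries.

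Muscle fibres burn fatty acids that reach them in the blood, much of it as triglyceride carried in lipoprotein particles. LPL (lipoprotein lipase) is made in muscle and fat cells and works on the wall of the capillary, where it splits that triglyceride and frees fatty acids. CD36 is a membrane protein that binds fatty acids and helps them across the cell surface, and FABP3, the heart and muscle fatty acid binding protein, carries them through the watery interior of the fibre. In beef, fat held within the muscle is known as marbling, and fatty acid supply is among the processes studied for it.

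Library totals ran from 53979857 to 90313051 estimated counts. Low values were most frequent at whole multiples of 3.31 to 4 counts, a spacing called the step here. It was 3.31 to 3.33 in the batch A libraries and 4 in each batch B library. The batches thus also differed in how their values were spaced, and the reason was not tested. Counting error was taken for counts divided by the step. The first principal component of all tested genes held 52.7% of the variance, and 92.6% of the spread along it went with batch. For that reason batch was a term in the species comparison. The table gives identifiers without symbols, and 0 of them could be paired with a symbol through the reference used here. The lists of muscle, fat cell, capillary and blood markers and of other fatty acid genes could therefore not be applied, and the tissue label was not checked against markers. Fewer cells of a type and less RNA per cell cannot be told apart in these whole-muscle samples.

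LPL, the enzyme at the start of the path, had the largest fold between its highest and lowest library of the 3 genes. Its level, in CPM (counts relative to the library total, scaled by TMM factors), was 3.99 in Banna replicate 1, 25.6 in Banna replicate 2 and 72.1 in Banna replicate 3. In Gayal it was 19.8 in replicate 1, 92.0 in replicate 2 and 213 in replicate 3. The species overlapped, while the 3 batch B libraries lay above the 3 batch A libraries. The highest library was 53.4-fold above the lowest, from 17515 and 306 estimated counts, the latter being 92 steps. Every neighbouring pair in the order of LPL levels differed by more than counting error. In a ranking of all identifiers by count, LPL stood at place 436 in Gayal replicate 3 and at place 7764 in Banna replicate 1. Banna replicate 1 was 4.96-fold below the next library, Gayal replicate 1 (95% exact interval of the ratio 3.92 to 6.30, for counting error only). Among 5657 tested genes with a mean of 10 CPM or more, only 3, LPL included, were at least 4-fold lower in Banna replicate 1 than in every other library, a bound chosen after the LPL values were seen.

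CD36, the carrier at the cell surface, varied less. Its level was 26.0 CPM in Banna replicate 1, 45.4 in Banna replicate 2 and 78.9 in Banna replicate 3. The Gayal libraries held 39.8 CPM in replicate 1, 59.9 in replicate 2 and 148 in replicate 3. Gayal replicate 3 was again the highest and Banna replicate 1 the lowest, 5.70-fold apart. The order of the libraries from low to high was that of LPL except that Gayal replicate 2 and Banna replicate 3 changed places. As for LPL, each species reached into the range of the other, and batch B lay wholly above batch A. The estimated counts of CD36 ran from 1996 to 12176, and each neighbouring pair in the order differed by more than counting error, the closest being Gayal replicate 1 and Banna replicate 2 at a ratio of 1.14 (95% exact interval 1.04 to 1.26).

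FABP3, the carrier inside the fibre, did not have batch B wholly above batch A as LPL and CD36 did. It was at 80.6 CPM in Banna replicate 1, 2605 in Banna replicate 2 and 84.8 in Banna replicate 3. In Gayal it was at 106 CPM in replicate 1, 90.1 in replicate 2 and 839 in replicate 3. Thus 4 libraries, 2 of each species and 2 of each batch, lay within 1.31-fold of each other, and 1 library of each species stood far above them. Gayal replicate 3 was 7.93-fold above the next library below it, and Banna replicate 2 was 3.10-fold above Gayal replicate 3. The lowest 3 libraries in the order could hardly be ranked. Banna replicates 1 and 3 had a ratio of 1.05 (95% exact interval 0.987 to 1.12). For Banna replicate 3 and Gayal replicate 2 it was 1.06 (0.994 to 1.14). Within each batch the libraries stood in the same order as for LPL, and in batch A also as for CD36. In batch B the lower libraries, Banna replicate 3 and Gayal replicate 2, were those that could hardly be ranked.

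The high FABP3 values rested on many counts. FABP3 had 241165 estimated counts in Banna replicate 2, 0.277% of that library and place 39 of all identifiers, and 69018 in Gayal replicate 3, 0.0931% and place 106. In the other 4 libraries the counts were 5949 to 7487, at places 833 to 1203. Of the 5657 genes at 10 CPM or more, 63 were highest in Banna replicate 2 by at least 3-fold over every other library. Only 3, FABP3 included, had Banna replicate 2 and Gayal replicate 3 each at least 4-fold above all 4 others. These bounds were chosen after the FABP3 values were seen, so the counts describe the libraries and are no test.

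**Figure D1:**
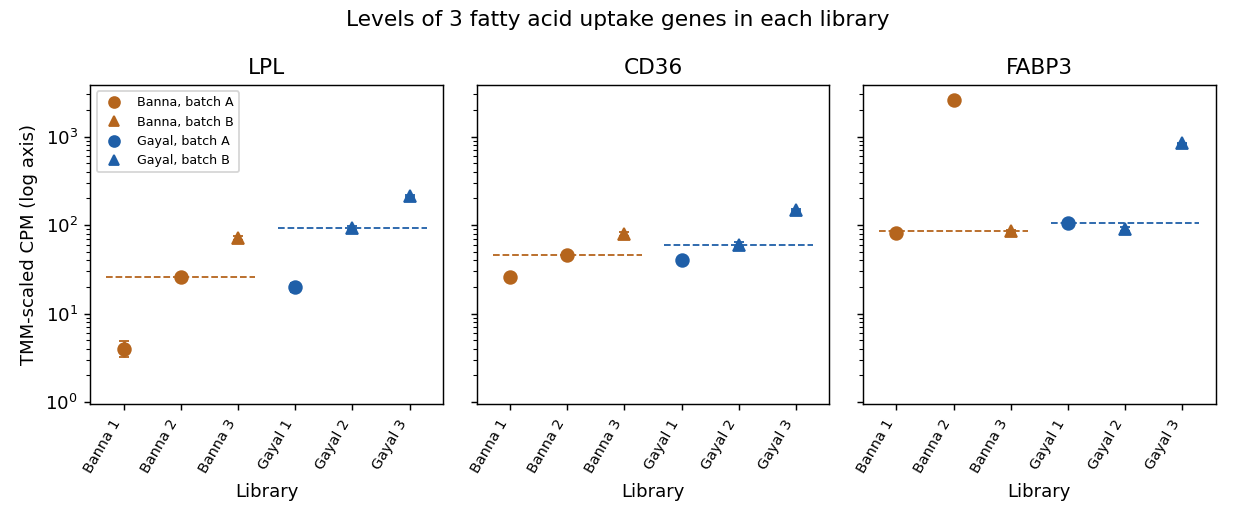
Level of LPL, CD36 and FABP3 in each library, in TMM-scaled CPM on a log axis. Points are single libraries coloured by species and shaped by batch, vertical bars are 95% exact Poisson intervals for counting error, most of them smaller than the point, and dashed lines are the species medians; LPL runs from 3.99 to 213 CPM, and FABP3 is high only in Banna replicate 2 (2605) and Gayal replicate 3 (839).

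Set against other genes, the spread of LPL and FABP3 over the libraries was wide and that of CD36 moderate. The SD of log2 CPM over the 6 libraries was 2.02 for LPL, 0.87 for CD36 and 2.15 for FABP3. The median over the 5657 genes at a mean of 10 CPM or more was 0.61. Of these genes, 134 had an SD at least as large as that of LPL, 1499 as that of CD36 and 113 as that of FABP3, the gene itself counted. By mean CPM, FABP3 ranked 161 of the 14112 tested genes, LPL 1345 and CD36 1441. These ranks and CPM values are not scaled for transcript length, so they do not order the 3 genes by number of transcripts.

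**Figure D2:**
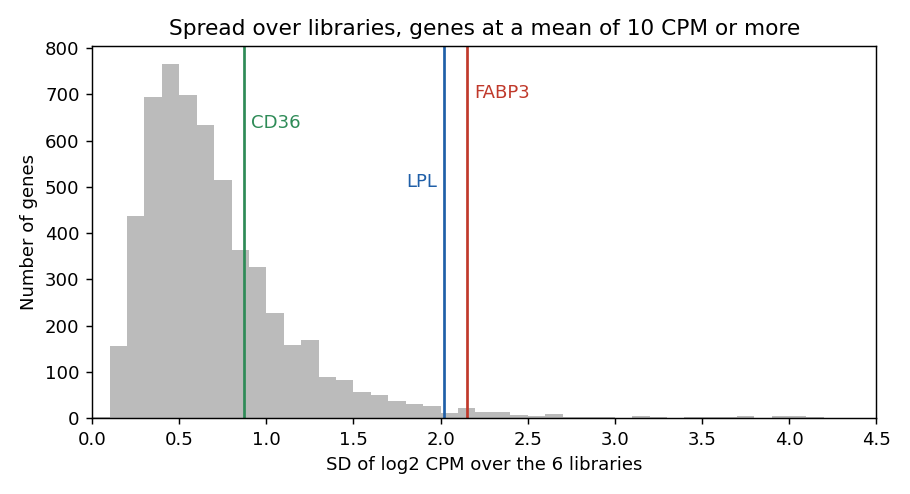
Histogram of the SD of log2 CPM over the 6 libraries for the 5657 tested genes with a mean of 10 CPM or more, with vertical lines for the 3 genes. CD36 (0.87) lies within the body of the distribution, whose median is 0.61, and LPL (2.02) and FABP3 (2.15) lie in its upper tail.

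Whether the 2 kinds of cattle differed in these genes was asked with edgeR's quasi-likelihood test over all 14112 genes, with species and batch as terms. None of the 3 genes passed at an adjusted p of 0.05 (Benjamini-Hochberg). The count was 0 of 3 in edgeR, 0 at an unadjusted p under 0.05, 0 in DESeq2 and 0 in limma-voom. Over all genes, 0.0425% were called higher and 0% lower in Gayal by edgeR, 2.32% and 1.22% by DESeq2, and 0.0709% and 0.0213% by limma-voom, so few genes of any kind passed. The species overlapped in all 3 genes, while 4.54% of the tested genes had all Gayal libraries above all Banna libraries and 5.82% had them below.

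For LPL the mean and SD of the 3 libraries were 108 ± 97.7 CPM in Gayal and 33.9 ± 34.8 CPM in Banna. The edgeR log2 difference, Gayal minus Banna, was 0.75 (SE 0.746, 95% interval -1.03 to 2.53, adjusted p = 0.852). This interval holds a lower level in Gayal and no difference, as well as a more than 4-fold higher level in Gayal. Without the batch term the log2 difference was 1.68 (SE 1.10, edgeR adjusted p = 0.972; 0.563 to 0.972 over 19 alternatives). The mean log2 difference within batch A, 1 Gayal library against 2 Banna libraries, was 0.97, and within batch B, 2 against 1, it was 0.96. In batch A the Gayal library lay above Banna replicate 1 and below Banna replicate 2. Fits of a single batch gave 0.41 in A and 1.14 in B.

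For CD36 the Gayal mean was 82.6 ± 57.6 CPM and the Banna mean 50.1 ± 26.8 CPM (SD, n = 3). Its log2 difference in edgeR was 0.28 (SE 0.434, 95% interval -0.76 to 1.31, adjusted p = 0.913). Within batches the mean log2 difference was 0.21 in A and 0.26 in B. In each batch the single library of its species lay between the other libraries of that batch. Without Gayal replicate 3 the fitted value was -0.07 (edgeR adjusted p = 0.986), and with Banna replicate 2 left out as well it was 0.12 (edgeR adjusted p = 0.996; 0.833 to 0.996 over 19 alternatives).

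For FABP3 the Gayal mean was 345 ± 428 CPM and the Banna mean 923 ± 1456 CPM (SD, n = 3), each set by 1 library. The medians, 106 CPM in Gayal and 84.8 CPM in Banna, had the opposite order to the means. The edgeR log2 difference was -0.61 (SE 3.28, 95% interval -8.44 to 7.23, adjusted p = 0.978). Leaving out Banna replicate 2 gave 1.54, leaving out Gayal replicate 1 gave 2.45, Banna replicate 3 -3.67 and Gayal replicate 3 -1.92, and it was 0.26 with Banna replicate 2 and Gayal replicate 3 both left out (edgeR adjusted p of 0.726 to 0.999 over 18 alternatives). Without Gayal replicate 1 only batch B holds both species, and without Banna replicate 3 only batch A does. Those fits therefore compare the species within 1 batch. These data thus give no direction for FABP3 between the species. Exact permutation tests of log2 CPM were two-sided, with 3 libraries against 3 and a smallest possible p of 0.1. They took no account of batch, which is unbalanced over the species. The species comparison gave an exact permutation p = 0.4 for LPL, 0.5 for CD36 and 1 for FABP3.

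The fitted differences of LPL and CD36 were larger between batches than between species. LPL was at 126 ± 76.3 CPM in batch B and 16.4 ± 11.2 CPM in batch A, and CD36 at 95.6 ± 46.4 and 37.1 ± 9.995 CPM (SD, n = 3). With species in the edgeR fit, the log2 difference, B minus A, was 2.62 for LPL (SE 0.767, 95% interval 0.78 to 4.45, unadjusted p = 0.0122, adjusted p = 0.0652). For CD36 it was 1.27 (SE 0.438, 95% interval 0.22 to 2.31, unadjusted p = 0.0241, edgeR adjusted p = 0.0949). Neither passed after adjustment in edgeR, which called 0 of the 3 genes, with 2 at an unadjusted p under 0.05. DESeq2 called 2 of 3, LPL (adjusted p = 0.00262) and CD36 (adjusted p = 0.0433), and limma-voom called LPL alone (adjusted p = 0.0391). The edgeR call of LPL was gained without a species term and without Banna replicate 2 (adjusted p of 0.0335 and 0.0279). Over 15 alternatives the adjusted p ran from 0.00262 to 0.271 for LPL and from 0.0433 to 0.34 for CD36. With counts divided by the step, which differed between the batches, the log2 difference was 2.56 for LPL and 1.21 for CD36 (edgeR adjusted p of 0.0554 and 0.0894).

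These calls have to be read against a background in which many genes differed with the batch letter. Of all tested genes, 7.73% were called higher in batch B by edgeR, 11.8% by DESeq2 and 8.97% by limma-voom. In edgeR the share was 9.42% without a species term and 5.01% without Banna replicate 2. Groups without overlap, as for LPL and CD36, were found with batch B higher in 21.1% of the tested genes. The absolute fitted batch difference was at least as large as that of LPL in 7.02% of the genes and as that of CD36 in 31.5%. For LPL the mean log2 difference between batches was 2.83 in Banna and 2.82 in Gayal, and for CD36 it was 1.198 in Banna and 1.243 in Gayal. The exact permutation test of log2 CPM between batches gave p = 0.1 for each of these genes, the smallest it can give.

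FABP3 had mean log2 batch differences of opposite sign in the 2 species, each resting on 1 high library. Its mean was 338 ± 434 CPM in batch B and 930 ± 1450 CPM in batch A (SD, n = 3), with 1 of the high libraries in each. The edgeR log2 difference was -0.92 (SE 3.24, adjusted p = 0.867), and it turned to 1.24 when Banna replicate 2 was left out and to 2.14 when Banna replicate 3 was (edgeR adjusted p of 0.381 to 0.95 over 15 alternatives). Without Banna replicate 3, only Gayal had libraries in both batches. With all libraries, the mean log2 difference between batches was -2.43 in Banna and 1.38 in Gayal. Apart from the high libraries, Banna was at 80.6 CPM in batch A and 84.8 in batch B. Gayal was likewise at 106 CPM in batch A and 90.1 in batch B, so neither sign held without its high library. The species by batch interaction for FABP3 was 6.12 on the log2 scale (SE 3.26, edgeR adjusted p = 0.8; DESeq2 adjusted p = 0.536). That interaction was 0.66 for LPL and 0.24 for CD36 (edgeR adjusted p of 0.969 and 0.982). None of the 3 passed in edgeR, where 0 were under an unadjusted p of 0.05, or in DESeq2. Of all tested genes, edgeR called 0% and DESeq2 1.63%.

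**Figure D3:**
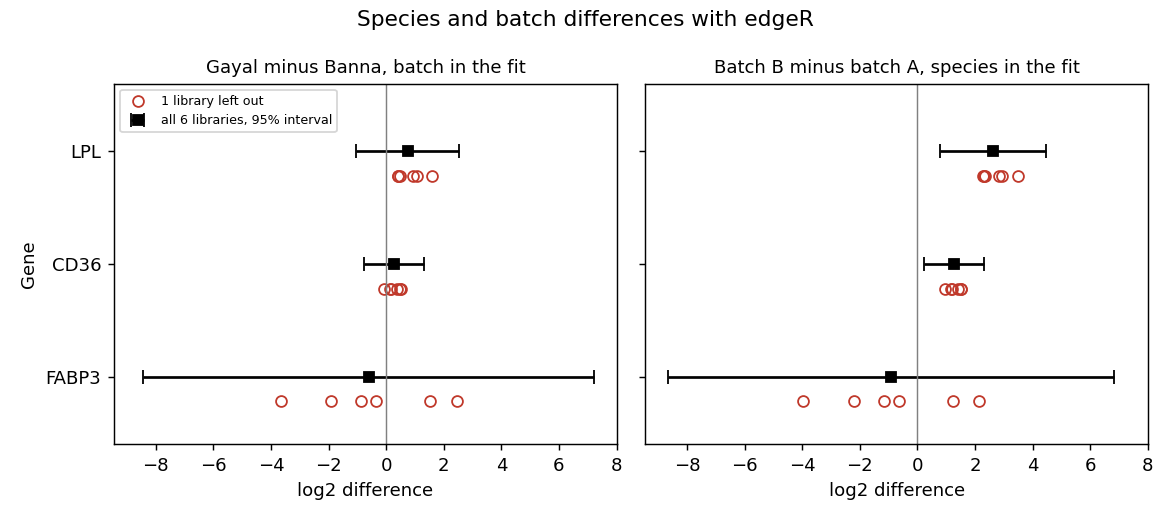
The log2 difference between species (left, Gayal minus Banna, batch in the fit) and between batches (right, B minus A, species in the fit) for the 3 genes. Black squares with bars are the edgeR estimates from all 6 libraries with 95% intervals, and open red circles are estimates with 1 library left out. For FABP3 the circles lie on either side of 0, from -3.67 to 2.45 for species and from -3.98 to 2.14 for batch. Both ends come from the fits without Gayal replicate 1 or Banna replicate 3. In these fits only 1 batch holds both species and only 1 species has both batches.

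A ratio of 2 genes within a library does not depend on how the library is scaled, so the 3 pairs were compared in this way. The log2 ratio of LPL to CD36 counts was -2.70 in Banna replicate 1, -0.83 in Banna replicate 2 and -0.13 in Banna replicate 3. In Gayal it was -1.01 in replicate 1, 0.62 in replicate 2 and 0.52 in replicate 3. Batch B lay above batch A, at 0.34 ± 0.41 against -1.51 ± 1.03 (SD, n = 3), a difference of 1.85 with a two-sided exact permutation p = 0.1 (0.3 after Benjamini-Hochberg adjustment over 6 ratio tests). LPL thus differed between batches by more than CD36 did in these libraries, which the smallest p of this design cannot bring past 0.05. Between species the difference of this ratio was 1.27 (exact permutation p = 0.3, adjusted 0.45), with overlap. Within batches it was 0.76 in A and 0.70 in B. Over both batches it was 0.53 without Banna replicate 1, and 0.98 to 1.81 with any other single library left out.

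The ratio of LPL to FABP3 covered a far wider range. Its log2 value was -6.67 in Banna replicate 2, where FABP3 was at its highest, and -4.34 in Banna replicate 1, where LPL was at its lowest. It was -0.24 in Banna replicate 3, -2.42 in Gayal replicate 1, 0.03 in Gayal replicate 2 and -1.98 in Gayal replicate 3. Batch B was above batch A by 3.75 without overlap (exact permutation p = 0.1, adjusted 0.3), and Gayal above Banna by 2.29 with overlap (exact permutation p = 0.3, adjusted 0.45). Within batches the species difference of this ratio was 3.08 in A and -0.74 in B, opposite directions. In batch B, Gayal replicate 2 lay above Banna replicate 3 and Gayal replicate 3 below it. Leaving out Banna replicate 2 brought the species value over both batches to 0.83, and leaving out Banna replicate 3 brought it to 4.05. The log2 ratio of CD36 to FABP3 ran from -5.84 in Banna replicate 2 to -0.10 in Banna replicate 3. It overlapped between batches (difference 1.90, exact permutation p = 0.4, adjusted 0.48) and between species (difference 1.02, exact permutation p = 0.8, adjusted 0.8). Without Banna replicate 2 the batch difference of this ratio was 0.46 and the species difference was -0.63, so its direction between species turned. With other single libraries left out the species difference ran from 0.57 (Gayal replicate 2) to 2.23 (Banna replicate 3).

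**Figure D4:**
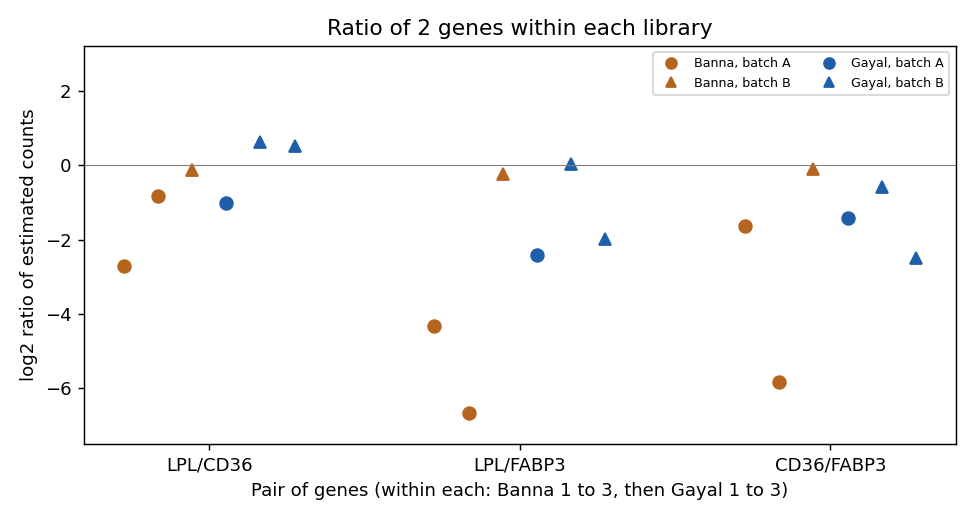
The log2 ratio of estimated counts of LPL to CD36, LPL to FABP3 and CD36 to FABP3 within each library, with colour for species and shape for batch. The LPL to CD36 ratio runs from -2.70 to 0.62 with all batch B libraries above all batch A libraries, and the LPL to FABP3 ratio reaches -6.67 in Banna replicate 2.

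The genes whose pattern over the 6 libraries was most like that of each of the 3 were sought among the other 5654 genes with a mean of 10 CPM or more. The measure was the root mean square difference of log2 CPM after each gene's mean was subtracted, so a small value means a similar shape. For LPL the nearest was ENSBTAG00000020520 at 0.58, against a median of 1.88 over all these genes. For CD36 it was ENSBTAG00000008997 at 0.21, against a median of 0.91. For FABP3 it was ENSBTAG00000004281 at 0.61, against a median of 2.07. Each is the smallest of 5654 distances, so it lies below the median by the choice and is no test. A gene with a wide spread is far from most genes, so these distances are not compared between the 3. The files do not pair these identifiers with gene names.

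The nearest genes were highest in the same libraries, which follows from how they were chosen. ENSBTAG00000020520 was at 4.56 CPM in Banna replicate 1 and at 82.5 and 91.0 CPM in Gayal replicates 2 and 3. ENSBTAG00000008997 ran from 80.2 CPM in Banna replicate 1 to 334 CPM in Gayal replicate 3, the same extremes as CD36. ENSBTAG00000004281 was at 256 CPM in Banna replicate 2 and 81.7 CPM in Gayal replicate 3, and at 7.76 to 18.5 CPM in the other 4 libraries. The other members were farther off. The distance between LPL and CD36 was 1.12, and 1.75% of the 5654 genes were nearer to LPL than CD36 was. From CD36, 70.9% were nearer than LPL. FABP3 was at 2.33 from LPL and 1.87 from CD36. Of the genes, 84.0% were nearer to LPL and 95.9% nearer to CD36 than FABP3 was. From FABP3, 81.1% were nearer than LPL, but only 19.4% were nearer than CD36.

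**Figure D5:**
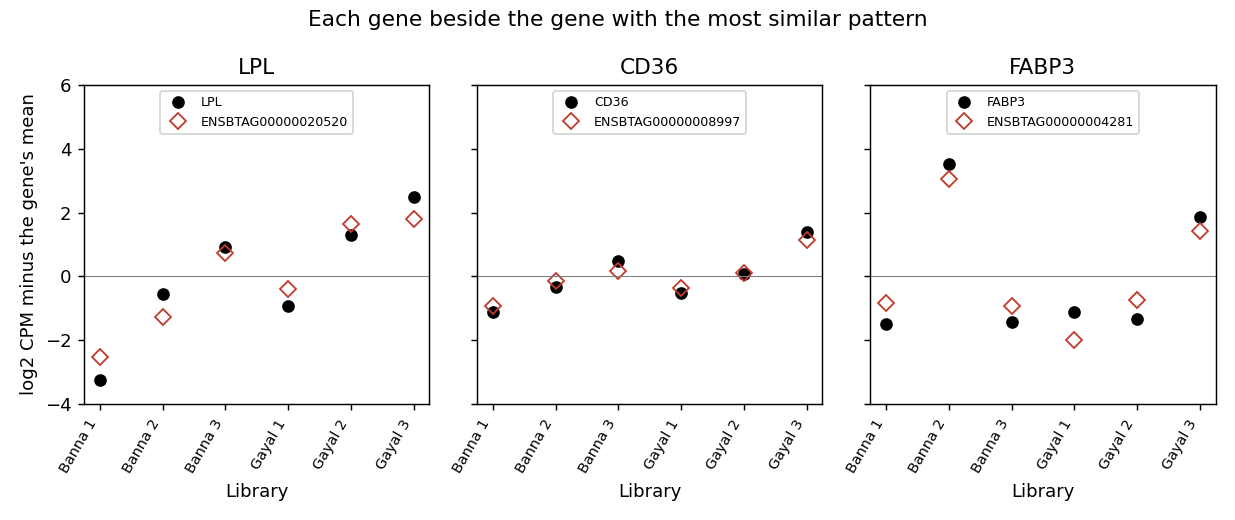
The log2 CPM of LPL, CD36 and FABP3 in each library after the gene's mean is subtracted (black), beside the gene with the smallest distance to each (open red diamonds). The distances are 0.58 for LPL, 0.21 for CD36 and 0.61 for FABP3, and the FABP3 panel shows the same 2 libraries, Banna replicate 2 and Gayal replicate 3, above the mean for both genes.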

How the data were processed

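Per the labels' protocols, RNA was extracted with TRIzol from frozen longissimus dorsi and sequenced as paired-end reads on an Illumina HiSeq instrument. Per the submitters' processing notes, HISAT2 2.0.4 and build ARS-UCD1.2 were used. The annotation, strand setting and counting program were not given in the sources used here. The deposited values were estimated counts per gene and library, not scaled for depth, and were whole numbers as deposited. Both species were read against a cattle genome, so mapping of Gayal reads could differ between genes.

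Genes were filtered with filterByExpr, scaled by TMM and tested with edgeR 4.0.16 (robust quasi-likelihood F test, R 4.3.3), with species and batch as terms and Benjamini-Hochberg adjustment over 14112 genes. The fit left 3 residual degrees of freedom. The standard error was the log2 difference divided by the square root of F. Alternatives used DESeq2 1.42.0 and limma 3.58.1, other scaling, no filter, no batch term, single batches and left-out libraries. The fit was tested on simulated data. Log2 CPM had a prior count of 2 and ratios a prior count of 0.5. The exact permutation tests, also those of the ratios, took no account of batch when species were compared, nor of species when batches were compared. Counting intervals are for counts divided by the step, estimated from values up to 60, and cover counting error only.

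The genes, lists and tests were chosen with earlier results of these data known. Genes named beside the 3 were the nearest in pattern to each. Lists that need symbols, and sequences of the 3 genes, were not used here.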

Additional observations from a re-analysis of the deposited data

Results flagged for a closer look

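The species difference of the CD36 to FABP3 ratio took opposite directions in the 2 batches. In batch A the 1 Gayal library lay above both Banna libraries, by a mean of 2.32 on the log2 scale, and in batch B both Gayal libraries lay below the 1 Banna library, by a mean of 1.44. The change from batch A to batch B was -3.76. The difference was not tested. The batch A value rests on Banna replicate 2, where FABP3 was at 2605 CPM, and against Banna replicate 1 the log2 ratio of Gayal replicate 1 was close, at -1.41 against -1.63.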

How the results depend on the processing

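Of 104 alternative values of the log2 differences and interactions, 91 kept their direction and their side of the threshold. For the other 13 the cause was not tested; a fit with a library left out also has fewer samples. The species difference of FABP3 turned to 0.037 with the replicate block, 2.52 in batch B alone and 0.26 with Banna replicate 2 and Gayal replicate 3 both left out, the last chosen after the data were examined. With a library left out it ran from -3.67 to 2.45, that of CD36 from -0.067 to 0.50, and that of LPL from 0.40 to 1.59. The batch difference of FABP3 ran from -3.98 to 2.14 in the same way. That of LPL ran from 2.29 to 3.48 and that of CD36 from 0.96 to 1.51. For FABP3 the ends of both ranges are the fits without Gayal replicate 1 or Banna replicate 3. In these only 1 batch holds both species. The batch difference of LPL became significant with DESeq2 (2.60), limma-voom (2.81), no species term (2.93, edgeR adjusted p = 0.0335) and without Banna replicate 2 (3.48, edgeR adjusted p = 0.0279), and that of CD36 with DESeq2 (1.25). The number of the 3 genes higher in batch B, 0 in edgeR, was thus 2 with DESeq2, 1 with limma-voom, 1 with no species term, and from 0 to 1 when single libraries were dropped. The count of genes called between species was 0 in every alternative run, so no alternative gave a species call for LPL, CD36 or FABP3.

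With the replicate number as a block in place of batch, LPL had a log2 species difference of 1.91 and CD36 one of 0.64, with edgeR adjusted p of 0.97 and 0.994. Deviations of same-numbered libraries correlated across genes at 0.25, -0.45 and 0.28 for replicates 1, 2 and 3. Replicates 1 shared a batch, as did replicates 3, while replicates 2 did not. These correlations therefore cannot show whether the numbers pair the samples, and no pairing was assumed in the main fit. The gene nearest in pattern changed for CD36 (0.18) and not for LPL or FABP3 when the minimum mean was 1 CPM. DESeq2 without a batch term gave FABP3 no adjusted p. The planned gene lists need symbols and were not run. With 3 libraries a species, a difference of the size seen for LPL could not be told from the spread.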
